A study of Drosophila melanogaster with 3 samples.

Results

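The nuclear tRNA genes of Drosophila melanogaster were examined in a chromatin immunoprecipitation sequencing (ChIP-seq) study of Ets21C, a transcription factor of the ETS family. All genes with the Ensembl gene biotype tRNA on the nuclear chromosome arms were taken, which gave 290 of 18164 annotated nuclear genes, transposable elements left out. Of these, 41 lay on 2L, 98 on 2R, 48 on 3L, 79 on 3R, 24 on X and 0 on 4. Whole white prepupae of the strain d.ets6-GFP, which stably carried Ets21C fused at its C terminus to enhanced green fluorescent protein (eGFP), were precipitated with an anti-GFP antibody. The sexes were pooled, and 3 biological replicates made up the only group, so conditions were not compared and no control library was among the samples analysed. In whole animals a peak in a few cells and a weak peak in many cannot be told apart, and the fusion protein stands in for the untagged factor. Each replicate had a deposited list of 28006 to 30000 entries, labelled as peaks and background, called here its whole list. A pooled list from all 3 replicates had the same label. Entries of these lists are called peaks below, though they include weak calls and background. The authors' optimal list, which keeps peaks reproducible between replicates, held 4505, and the 4505 highest peaks of each replicate are called its top list.

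A tRNA carries one amino acid to the ribosome and reads codons through its anticodon. Its gene is transcribed by RNA polymerase III from an internal promoter, a pair of short elements inside the gene called the A box and the B box, to which the factor TFIIIC binds. TFIIIC places TFIIIB just upstream of the start, and TFIIIB recruits the polymerase. ETS factors bind DNA through the core word GGAA and are known mainly from genes of RNA polymerase II. In Drosophila, Ets21C is known as a stress-response factor downstream of JNK signalling, and the white prepupa stands at the onset of metamorphosis. Other transcribed genes often lie close to tRNA genes, so the distance to the nearest protein-coding transcription start site (TSS) is given beside each result it touches.

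The genes below show what the annotated members look like, the first 3 with the highest peaks of the set and the last 2 as isolated genes with no peak in any list. Sequences were read from the RefSeq Release 6 (dm6) genome, 5′ to 3′ along the strand of the gene, with the A box and the B box core GTTCGANNC in capitals where they were found. The tyrosine gene tRNA:Tyr-GTA-1-8 (chr3R:8669081-8669174, minus strand) was 94 bases long, since Drosophila tyrosine tRNA genes carry an intron. tRNA:Gln-TTG-2-1 (chrX:3427452-3427523, minus strand) and tRNA:Lys-TTT-1-1 (chr2L:8290727-8290799, plus strand) had 72 and 73 bases. tRNA:Ala-AGC-2-1 (chr3L:8028546-8028618, minus strand) and tRNA:Arg-TCG-2-2 (chrX:21232091-21232163, plus strand) were the genes with no peak.
Tyr-GTA-1-8: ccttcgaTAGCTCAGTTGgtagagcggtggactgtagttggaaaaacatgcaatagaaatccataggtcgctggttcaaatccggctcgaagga
Gln-TTG-2-1: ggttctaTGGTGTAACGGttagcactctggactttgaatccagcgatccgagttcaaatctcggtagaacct
Lys-TTT-1-1: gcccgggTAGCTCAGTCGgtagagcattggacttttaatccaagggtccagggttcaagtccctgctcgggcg
Ala-AGC-2-1: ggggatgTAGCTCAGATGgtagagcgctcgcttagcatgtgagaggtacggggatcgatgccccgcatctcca
Arg-TCG-2-2: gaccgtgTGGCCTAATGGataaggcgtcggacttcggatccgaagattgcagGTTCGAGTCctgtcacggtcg

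The A box was found in the first 30 bases of 270 of the 290 genes (93.1%) and in 9 of the 10 with an optimal peak. The strict B box core GTTCGANNC was found in the last 40 bases of 160 genes (55.2%) and of 3 of the 10 with an optimal peak, and both boxes in 152 (52.4%) and in 2 of the 10. The looser GTTCNANNC, tried after the strict form was seen to be missing from many genes, was found in 271 (93.4%) and in all 10. Most of the annotated genes thus carried the internal elements that the class is known by. The genes had a median length of 73 bases (range 71 to 186), and 58.0% of their bases were G or C, against 38.4% within 500 bp of them and 42.2% over the nuclear arms.

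The 3 highest optimal peaks at tRNA genes lay beside these genes and not on them. Below are the 101 bases centred on each summit, on the plus strand, with the ETS core GGAA or its complement TTCC in capitals. The summit windows of Tyr-GTA-1-8 (chr3R:8669321-8669421), Gln-TTG-2-1 (chrX:3427699-3427799) and Lys-TTT-1-1 (chr2L:8290989-8291089) held 0 matches to the core. The window of Pro-AGG-1-2 (chr2L:14598430-14598530) held 3, and that of Asp-GTC-1-5 (chr2L:8542037-8542137) held 1.
Tyr-GTA-1-8 summit: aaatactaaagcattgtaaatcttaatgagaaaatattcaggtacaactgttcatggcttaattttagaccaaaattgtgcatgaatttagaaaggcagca
Gln-TTG-2-1 summit: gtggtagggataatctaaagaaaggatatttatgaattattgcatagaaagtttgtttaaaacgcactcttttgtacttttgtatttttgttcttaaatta
Lys-TTT-1-1 summit: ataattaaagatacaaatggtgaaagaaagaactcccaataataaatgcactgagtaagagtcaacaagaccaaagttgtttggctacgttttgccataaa
Pro-AGG-1-2 summit: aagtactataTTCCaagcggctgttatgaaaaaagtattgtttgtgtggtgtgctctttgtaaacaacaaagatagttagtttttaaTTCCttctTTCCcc
Asp-GTC-1-5 summit: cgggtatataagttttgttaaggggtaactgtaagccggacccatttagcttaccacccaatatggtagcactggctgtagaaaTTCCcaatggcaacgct

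The first 3 windows were 25.7% to 32.7% G or C, and the median over the 9 summits at tRNA genes was 34.7%, against 31.7% over all 4482 nuclear optimal summits. Within 100 bp of the summit, on either strand, GGAA occurred at 6 of the 9 tRNA summits (66.7%) and at 74.1% of all nuclear optimal summits. The longer ETS word CCGGAAG, which contains GGAA, occurred at 1 of 9, against 0.513% of all. The promoter word TATCGATA, bound by the factor DREF, occurred at 1 of 9, against 2.48% of all. GTTCGANNC occurred at 1 of 9, against 1.41% of all. With 9 summits each of these single matches is 1 window. Within 500 bp of the middle of the gene, GGAA was present at all 10 genes with an optimal peak and at all 280 without. CCGGAAG was present at 1 of the 10 and at 21 of the 280 (7.50%), and GTTCGANNC, which many tRNA genes themselves hold, at 4 of the 10 and at 169 of the 280 (60.4%).

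An optimal summit lay within 500 bp of 10 of the 290 tRNA genes (3.45%, exact 95% binomial interval 1.67% to 6.25%, counting error only). The same distance rule was met by 3.43% of all positions on the nuclear arms taken as the start of a gene of the median length, so the share of tRNA genes lay close to that of the sequence at large. Other nuclear genes differed by how they were counted. A summit lay within 500 bp of the 5′ end of 11.3% of the 17874 other genes, many of them protein-coding genes with promoter peaks, and within 500 bp of 1.92% of the 1200 other genes of at most 200 bp. Among these short genes are 96 genes of 5S ribosomal RNA in an array, which had no summit in any list and lower the share. Set against these short genes in the top lists, tRNA genes were higher in 3 of 3 replicates, with 2.07%, 3.45% and 5.17% of tRNA genes in replicates 1, 2 and 3 against 1.75%, 1.25% and 3.17% of short genes. The mean difference was 1.51 ± 1.03 percentage points (SD, n = 3; exact two-sided sign-flip permutation test over replicates, p = 0.25, adjusted p = 0.50 over 10 such comparisons). By class, the share was 21.4% of protein-coding genes and 2.97% of 269 small nucleolar RNA genes, counted over whole genes. Leaving out a replicate, with optimal peaks kept where both other top lists had a summit within 100 bp, gave 2.76% of tRNA genes without replicate 1, 1.72% without replicate 2 and 1.38% without replicate 3, a rule that also keeps fewer peaks in all.

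No optimal summit lay within 100 bp of any of the 290 genes, where 0.909% of positions had one. At the share of the positions fewer than 3 of the 290 would have had one. The closest summit was 183 bp from tRNA:His-GTG-1-3, and the median distance from a tRNA gene to the nearest optimal summit was 10989 bp. The 10 genes shared 9 peaks, since the neighbouring aspartate genes Asp-GTC-1-4 and Asp-GTC-1-5 lay by the same one. Of the 9 summits, 5 were upstream of the nearest tRNA gene, 0 within it and 4 downstream. A protein-coding TSS lay within 500 bp of the summit for 6 of the 9, against 37.6% of all nuclear optimal summits.

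**Figure D1:**
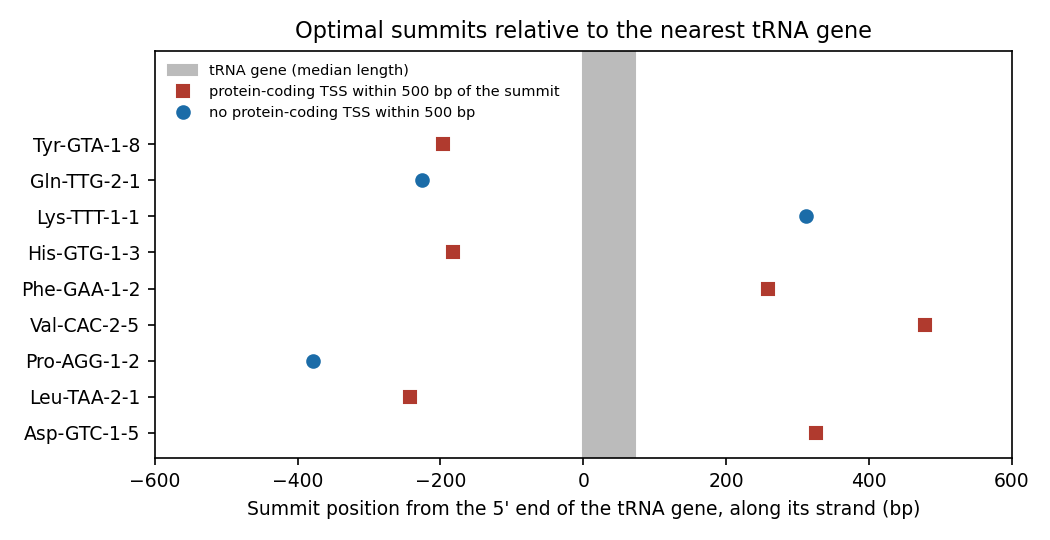
Position of the 9 optimal summits along the strand of the nearest tRNA gene, in bp from its 5′ end, 1 gene a line, with the median gene length shaded. Squares mark the 6 summits with a protein-coding TSS within 500 bp and circles the 3 without. The 5 summits on the left are upstream, the 4 on the right downstream, and none falls on the gene.

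The highest of these peaks was at Tyr-GTA-1-8, with an authors' signal of 671 in the optimal list, where it ranked 262 of 4505. Its summit was 197 bp upstream of the gene and 247 bp from a TSS of the protein-coding gene CG8036. Its signal was 113, 154 and 384 in replicates 1, 2 and 3, each list on its own scale. Scaled to the median of the top list of the same replicate, it stood at 2.79, 2.46 and 4.19 times the median (mean 3.14 ± 0.92, SD, n = 3). This peak was in the top list of every replicate.

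Gln-TTG-2-1 and Lys-TTT-1-1 had the next highest peaks. The set held 19 genes that were isolated, had a sequence found once and lay over 1 kb from a protein-coding TSS, and these 2 were the ones with a top-list peak in all 3 replicates. At Gln-TTG-2-1 the summit was 226 bp upstream, with an optimal signal of 575 (rank 395) and 8058 bp to the nearest protein-coding TSS. Its scaled signal was 3.81, 1.99 and 3.08 in replicates 1, 2 and 3 (mean 2.96 ± 0.91, SD, n = 3). At Lys-TTT-1-1 the summit was downstream, 240 bp past the gene, with an optimal signal of 352 (rank 933) and 6085 bp to the nearest such TSS, that of Btk, a cytoplasmic tyrosine kinase gene. Its scaled signal was 2.52, 1.76 and 1.42 (mean 1.90 ± 0.57, SD, n = 3). Both peaks stood above the median of the top list in every replicate.

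The other 6 peaks were lower or less repeated. His-GTG-1-3 had an optimal signal of 252 with a summit 67 bp from a TSS of CG8490, and Phe-GAA-1-2 one of 182 with a summit 46 bp from a TSS of RpL17, which encodes a protein of the large ribosomal subunit. Neither had a peak in replicate 1 within 100 bp of the optimal summit. His-GTG-1-3 stood at 1.06 and 1.67 times the median of the top list in replicates 2 and 3. Phe-GAA-1-2 stood at 0.410 and 1.64 times, so replicates 2 and 3 lay on opposite sides of the median.

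Val-CAC-2-5, at 175, lay 421 bp from a TSS of Naam, a nicotinamidase gene, and Leu-TAA-2-1, at 162, lay 333 bp from one of CG13605. The shared peak of Asp-GTC-1-4 and Asp-GTC-1-5, at 152, lay 60 bp from a TSS of Sema1a, which encodes a transmembrane semaphorin of axon guidance. The distances are those of the summits. Pro-AGG-1-2, at 174, was the remaining gene far from a protein-coding TSS, with 10246 bp to that of CG42680. Its scaled signal was 1.14, 0.676 and 0.906 in replicates 1, 2 and 3. Within 100 bp of the optimal summit, a top-list summit in every replicate was seen for 4 of the 9 peaks, and a whole-list one for 7. Counted within 500 bp of the gene, Leu-TAA-2-1 also had a top-list summit in every replicate. The median optimal signal of the 9 peaks was 182, against 192 for the whole optimal list, a ratio of 0.946, and 4 of the 9 stood above that median. The ratio was 1.88 where replicate 3 was left out, that is over optimal peaks with a summit within 100 bp in the top lists of replicates 1 and 2.

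**Figure D2:**
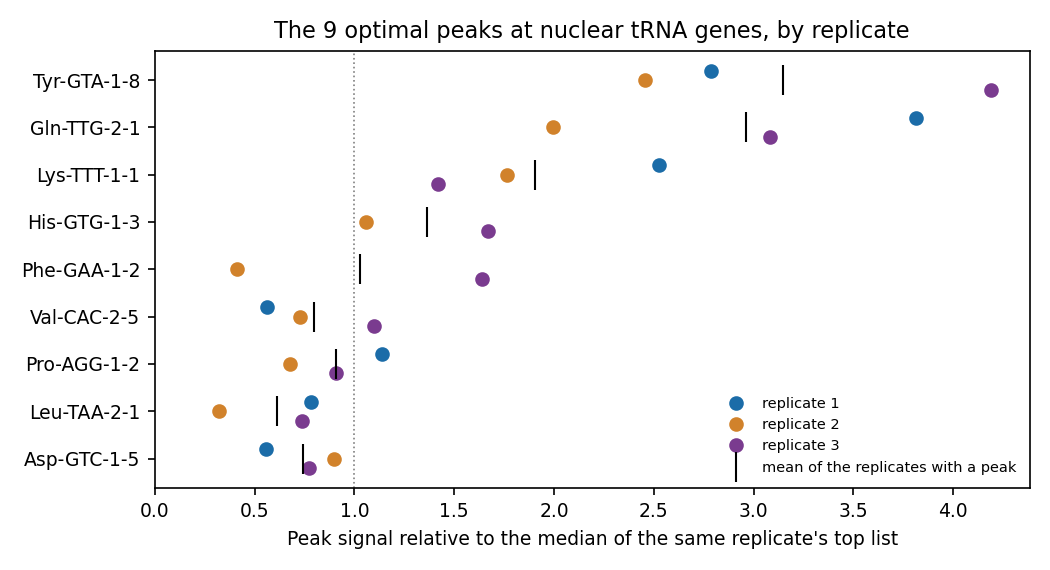
Signal of the 9 optimal peaks in each replicate, divided by the median of the top list of that replicate, with 1 gene a line and a bar at the mean of the replicates that had a peak. The dotted line marks the median of the top list. Tyr-GTA-1-8, Gln-TTG-2-1 and Lys-TTT-1-1 lie right of it in all 3 replicates, and His-GTG-1-3 and Phe-GAA-1-2 have no point for replicate 1.

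Most of the genes with an optimal peak lay near a protein-coding promoter. Of the 80 tRNA genes within 1 kb of a protein-coding TSS, 7 had an optimal summit within 500 bp (8.75%, interval 3.59% to 17.2%), and of the 210 genes farther away 3 had one (1.43%, interval 0.296% to 4.12%). Of positions on the arms, 7.76% of those near such a TSS and 2.29% of those farther away had one. In the top lists the share near a TSS was 2.50%, 8.75% and 12.5% in replicates 1, 2 and 3, against 1.90%, 1.43% and 2.38% of the genes farther away. The mean difference was 6.01 ± 4.90 percentage points (SD, n = 3; exact two-sided sign-flip permutation test over replicates, p = 0.25, adjusted p = 0.50 over 10 such comparisons). In the whole lists the shares were 12.5%, 27.5% and 45.0% near a TSS, against 18.6%, 21.9% and 37.1% farther away. There replicate 1 went the other way, and the mean difference was 2.46 ± 7.47 points (SD, n = 3; exact two-sided sign-flip permutation p = 0.75, adjusted p = 0.833). With 3 replicates this test cannot go below 0.25, so no comparison of this kind can pass 0.05. Positions near such a TSS had a top-list summit at 5.32%, 8.28% and 9.03%, against 2.92%, 2.14% and 1.95% of those farther away. In the whole lists the values for positions were 19.0%, 27.7% and 35.4%, against 22.6%, 18.1% and 15.8%. Replicate 1 thus went the other way over positions too, so this order is not particular to tRNA genes.

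In the top lists, a summit lay within 500 bp of 6, 10 and 15 of the 290 tRNA genes in replicates 1, 2 and 3 (2.07%, 3.45% and 5.17%), against 3.42%, 3.42% and 3.43% of positions. Replicate 1 lay below the positions, replicate 2 at them and replicate 3 above them. The mean difference was 0.141 ± 1.55 percentage points (SD, n = 3; exact two-sided sign-flip permutation p = 0.75, adjusted p = 0.833), smaller than the spread between replicates. A top-list peak in all 3 replicates was found for 5 genes, in 2 for 4 genes, in 1 for 8 genes and in none for 273. The overlap of the top lists over positions is not given here. These counts thus cannot show whether tRNA genes overlap more or less than other sequence.

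The whole lists, which hold weak calls and background, showed the replicates apart. There a summit lay within 500 bp of 49, 68 and 114 tRNA genes in replicates 1, 2 and 3 (16.9%, 23.4% and 39.3%), against 21.8%, 20.1% and 19.9% of positions, and of 80 genes in the pooled list (27.6%, against 19.3% of positions). The difference was -4.93, 3.30 and 19.5 percentage points in replicates 1, 2 and 3, a mean of 5.94 ± 12.4 (SD, n = 3; exact two-sided sign-flip permutation p = 0.75, adjusted p = 0.833). Without replicate 3 the mean was -0.81, so the higher share rested on that replicate. Other genes of at most 200 bp had a whole-list summit at 14%, 16.6% and 21.7%, and tRNA genes stood 2.90, 6.86 and 17.6 points above them in replicates 1, 2 and 3 (mean 9.14 ± 7.63, SD, n = 3; exact two-sided sign-flip permutation p = 0.25, adjusted p = 0.50). Within 100 bp of the gene the counts were 12, 19 and 47 genes (4.14%, 6.55% and 16.2%), against 6.07%, 5.63% and 5.98% of positions.

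Replicate 3 also had more summits at some other classes of genes. Within 500 bp of the 5′ end of other genes its whole list had a summit at 44.8%, against 20.1% in replicate 1 and 33.4% in replicate 2. Among tRNA genes over 1 kb from a protein-coding TSS, 37.1% had a summit in replicate 3, against 15.8% of positions as far away, and in replicate 1 18.6% had one, against 22.6% of such positions. In replicate 2 the same values were 21.9% and 18.1%. Small nucleolar RNA genes had a summit at 3.72%, 19.7% and 28.3% in replicates 1, 2 and 3. Other classes differed less: genes of the class ncRNA had one at 38.4%, 39.3% and 41.3%, and pseudogenes at 22.8%, 23.9% and 19.4%, lowest in replicate 3. What sets replicate 3 apart was not tested.

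Of the 290 genes, 126 had a whole-list peak in no replicate, 110 in 1, 41 in 2 and 13 in all 3. A peak in replicate 3 alone was found for 69 genes, against 23 in replicate 1 alone and 18 in replicate 2 alone. Of positions 21.8%, 20.1% and 19.9% had a whole-list summit in replicates 1, 2 and 3. Their overlap between replicates is not given here, so these counts cannot show whether tRNA genes overlap less than other sequence. Of the 13 genes with a peak in all 3, the highest summits of the replicates lay within 100 bp of each other at 7. The peaks that were counted at tRNA genes had median ranks of 15511, 14954 and 11508 in lists of 30000, 28006 and 30000 peaks. Most lay below the top list, which holds for peaks at large too, since the top list takes only 4505 of each list. Of the highest peaks at each gene of replicate 3, the summit was upstream of the gene for 62, within it for 6 and downstream for 46.

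**Figure D3:**
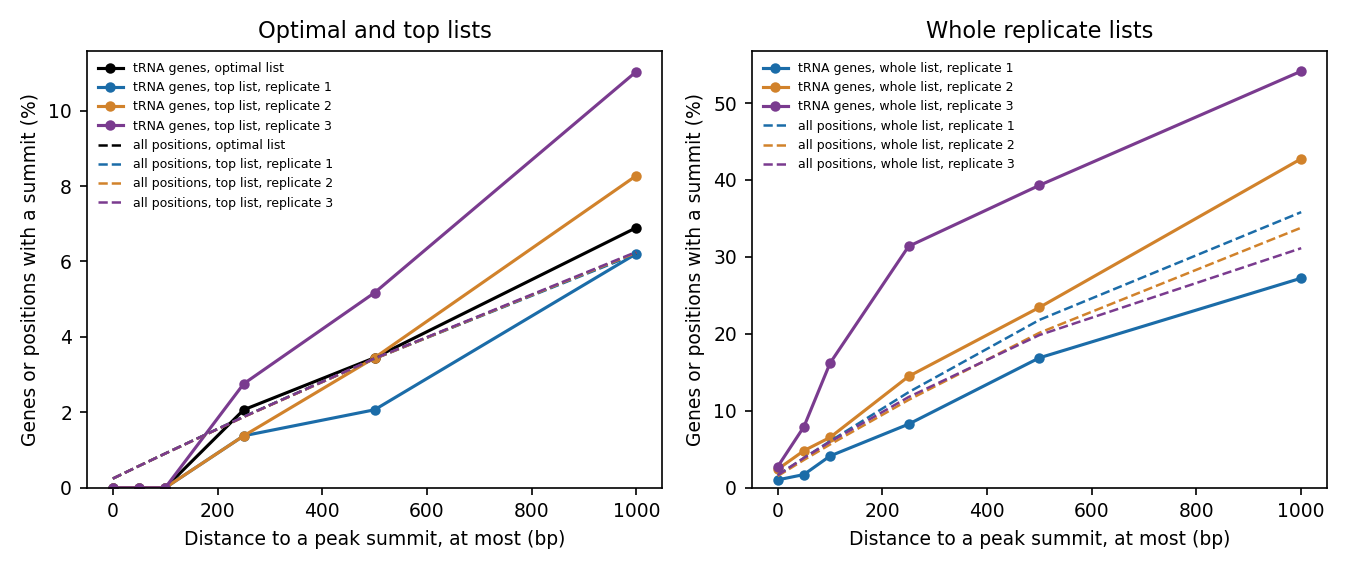
Percent of tRNA genes (solid lines) and of all positions on the nuclear arms (dashed) with a peak summit at most the given distance away in bp, for the optimal and top lists (left) and the whole lists (right). On the left the tRNA lines start at 0 up to 100 bp and stay between 2.07% and 5.17% at 500 bp, around the dashed lines. On the right replicate 3 stands above its dashed line at each distance plotted, and replicate 1 below its own.

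tRNA genes often stand in clusters. Here 90 genes were isolated, with no other nuclear tRNA gene within 2 kb, and 200 were clustered. Genes joined by gaps of at most 2 kb formed 159 loci, 69 of them with 2 genes or more. An optimal summit lay within 500 bp of 5 of the 90 isolated genes (5.56%, interval 1.83% to 12.5%) and of 5 of the 200 clustered genes (2.50%, interval 0.817% to 5.74%). These intervals overlapped, and both held the 3.43% of positions with such a summit. The difference of 3.06 percentage points between isolated and clustered genes was 0.83 with replicate 1 left out, 2.33 without replicate 2 and 1.22 without replicate 3. These values were taken over optimal peaks that were also in the top lists of the other 2 replicates. In the top lists 4.44%, 4.44% and 5.56% of isolated genes had a summit in replicates 1, 2 and 3, against 1%, 3% and 5% of clustered genes. Of positions 3.42%, 3.42% and 3.43% had one. Isolated genes were higher than clustered genes in 3 of 3 replicates, by 1.81 ± 1.48 percentage points on average (SD, n = 3; exact two-sided sign-flip permutation p = 0.25, the smallest it can give, adjusted p = 0.50).

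The order turned round in other counts of the same genes. With loci in place of genes, the optimal list had a summit at 5 of 90 loci of 1 gene (5.56%) and at 4 of 69 loci of 2 genes or more (5.80%). In the whole lists 22.2%, 26.7% and 23.3% of isolated genes had a summit in replicates 1, 2 and 3, against 14.5%, 22.0% and 46.5% of clustered genes, so replicates 1 and 2 were on one side and replicate 3 on the other. The mean difference was -3.59 ± 17.0 percentage points with replicate 3 and 6.19 without it (SD over 3 replicates; exact two-sided sign-flip permutation p = 1.00). Isolated genes varied little between replicates, with an SD of 2.31 points, and clustered genes by 16.7 points. Of positions 21.8%, 20.1% and 19.9% had a whole-list summit in replicates 1, 2 and 3. Clustered genes lay below the positions in replicate 1 and above them in replicates 2 and 3. Isolated genes lay above the positions in each replicate, narrowly so in replicate 1. Loci of 1 gene had a whole-list summit at 22.2%, 26.7% and 23.3%, and loci of 2 genes or more at 29.0%, 39.1% and 60.9%. Loci of 1 gene also cover less sequence, with a median length of 73 bp, against 750 bp for loci of 2 genes or more, and the part of that length in the difference was not tested.

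**Figure D4:**
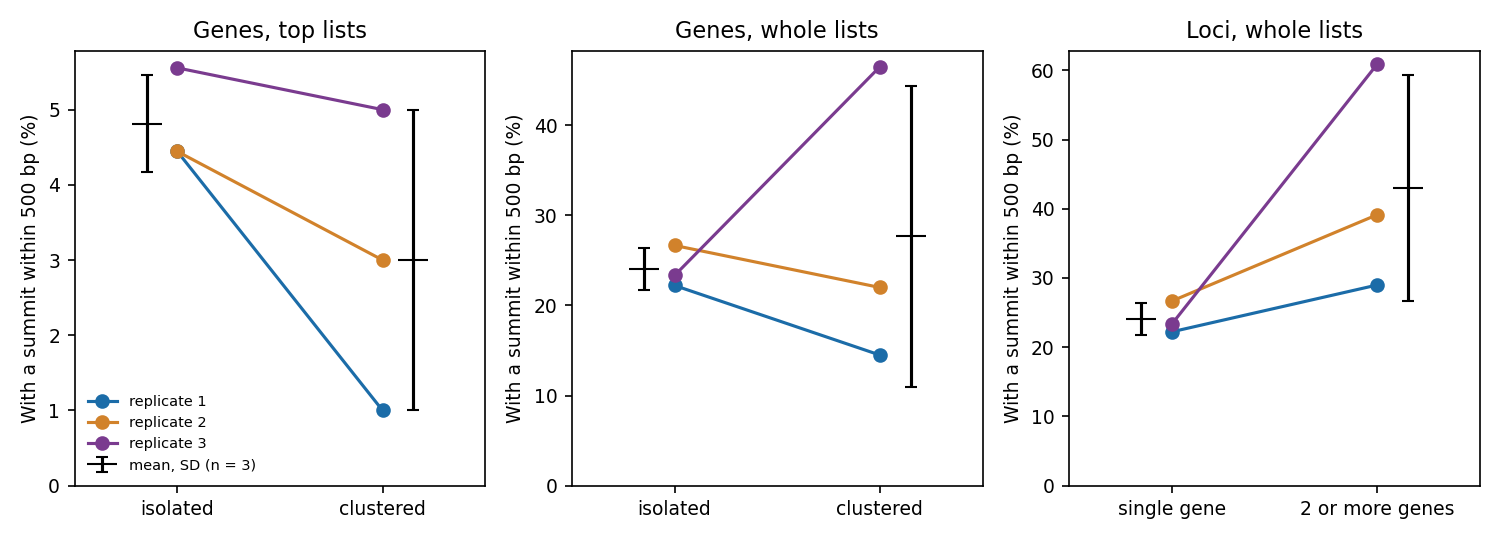
Percent of isolated and clustered tRNA genes with a summit within 500 bp in the top lists (left) and whole lists (middle), and percent of loci of 1 gene and of 2 genes or more in the whole lists (right), with a line for each replicate and the mean and SD of the 3 beside it. In the middle panel replicates 1 and 2 fall to the right and replicate 3 rises, to 46.5% of clustered genes.

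The 3 loci with most genes held 7 each, and none had an optimal summit within 500 bp of any gene, where 2.50% of all clustered genes had one. The locus of the isoleucine genes Ile-AAT-1-3 to Ile-AAT-1-7 with the leucine genes Leu-CAA-2-1 and Leu-CAA-1-1 (2R, 13430282 to 13432794) had a whole-list summit at 0, 0 and 6 of its genes in replicates 1, 2 and 3. The locus of the initiator methionine genes iMet-CAT-1-1 and iMet-CAT-1-2 with 5 glutamate genes, Glu-TTC-1-4, Glu-TTC-1-5, Glu-TTC-1-6, Glu-CTC-2-1 and Glu-CTC-2-2 (2R, 19725620 to 19728958), had one at 0, 2 and 7. The locus of the arginine genes Arg-TCG-2-1 and Arg-TCG-3-1 to Arg-TCG-3-4 with the serine genes Ser-CGA-1-1 and Ser-CGA-1-2 (X, 14014814 to 14017284) had one at 0, 0 and 2. All 3 loci had the most genes with a summit in replicate 3. So had the clustered genes as a whole, with 14.5%, 22.0% and 46.5% in replicates 1, 2 and 3, so this order is not particular to these loci. Genes of a locus also share peaks: over all clustered genes, the 93 with a summit in replicate 3 had 61 peaks between them. Among isolated genes 46 of 90 had no peak in any list, of which Ala-AGC-2-1, Arg-ACG-1-5, Arg-CCT-1-1 and Arg-TCG-2-2 are the first by name. Over all 290 tRNA genes 122 had no peak in the pooled list or any replicate list. The share of positions with none is not given here.

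Many tRNA genes are exact copies of each other, and the 290 genes held 95 distinct sequences, 52 of them found once. The copies allow a comparison at equal gene sequence. Of 12 identical copies of the Asp-GTC-1 gene, 2 had an optimal summit within 500 bp, of 8 copies of Phe-GAA-1 1 had one, and likewise 1 of 7 copies of Pro-AGG-1, 1 of 6 of Val-CAC-2-5 and its copies, and 1 of 5 of His-GTG-1. These groups were taken because a member had a peak, so the counts describe them and support nothing, and 3.43% of positions had such a summit. Genes with a sequence found once had an optimal summit at 4 of 52 (7.69%, interval 2.14% to 18.5%) and those with copies at 6 of 238 (2.52%, interval 0.931% to 5.41%). In the top lists the shares were 7.69%, 9.62% and 9.62% of genes found once, against 0.840%, 2.10% and 4.20% of genes with copies, a mean difference of 6.59 ± 1.07 percentage points (SD, n = 3; higher in 3 of 3 replicates; exact two-sided sign-flip permutation p = 0.25, adjusted p = 0.50). In the whole lists the difference was 16.9, 6.58 and -12.8 points, so replicate 3 again stood on the other side. Of the 52 genes found once 25 were isolated, against 90 of all 290 genes. The comparison by copies and that of isolated with clustered genes thus overlap, and the part of each was not tested. How the authors treated reads that match several copies is not given in the sources used here.

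By amino acid, the genes fell into 22 groups, with initiator methionine and selenocysteine counted apart. Of these, 9 groups had at least 1 gene with an optimal summit within 500 bp, and 13 had none. No group reached 50% of its genes in the optimal list. Aspartate had 2 of 14 genes, which shared 1 peak, and glutamine, histidine, leucine, lysine, phenylalanine, proline, tyrosine and valine had 1 gene each. By anticodon, 9 of 45 families had an optimal summit at any gene. Arginine, with 26 genes the largest group, had none in the optimal list or in any top list. Over all tRNA genes 3.45% had an optimal summit, against 3.43% of positions, so a group with none says little about its amino acid.

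In the whole lists 18 of the 22 groups had a higher share in replicate 3 than in replicate 1, 3 a lower and 1 an equal one. Over all tRNA genes the share was 16.9%, 23.4% and 39.3% in replicates 1, 2 and 3, so most groups moved with the whole set. Of positions 21.8%, 20.1% and 19.9% had a summit. The initiator methionine genes had a summit at 1, 1 and 5 of 6 genes in replicates 1, 2 and 3, and the glutamate genes at 2, 2 and 12 of 19. Proline had the highest mean share of a group of over 1 gene, 39.2 ± 8.99% (SD, n = 3), with 7, 5 and 8 of its 17 genes. Initiator methionine came next with 38.9 ± 38.5%, a spread wide enough to hold every other group. Elongator methionine was at the low end, with 1, 0 and 0 of 6 genes. Genes of a group share sequence and often a locus, so they are not independent. The genes iMet-CAT-1-1, iMet-CAT-1-2 and Glu-TTC-1-4, for example, shared a peak of replicate 3.

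**Figure D5:**
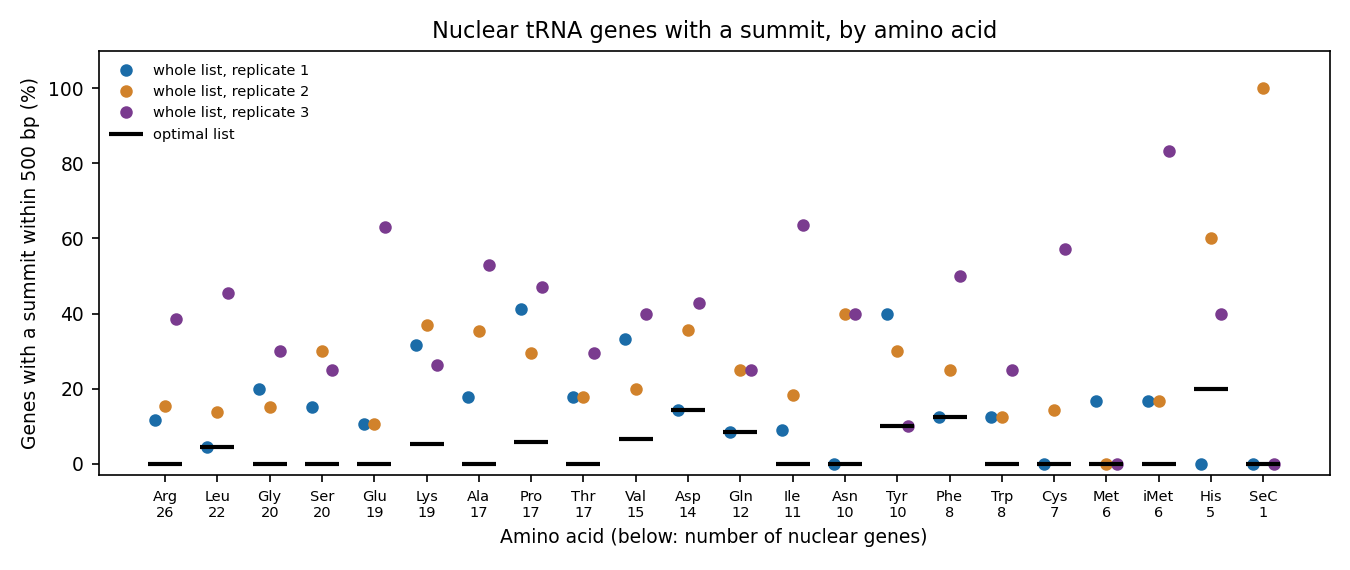
Percent of the nuclear tRNA genes of each amino acid with a summit within 500 bp, as a bar for the optimal list and a point for the whole list of each replicate, with the number of genes under each name. Optimal bars stay at or below 20%, the value of 1 of 5 histidine genes. Replicate 3 lies above replicate 1 in 18 of 22 groups.

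Other RNA polymerase III genes differed by kind. None of the 96 genes of 5S ribosomal RNA had a summit within 500 bp in any list, and these genes are near-identical copies in an array. Of 10 other genes of this class (U6, U6atac, 7SK, 7SL, RNase P and RNase MRP RNA), 2 had an optimal summit, the U6 genes snRNA:U6:96Ab and snRNA:U6:96Ac, which shared a peak with a signal of 123. That is 20.0% of the 10, against 3.43% of positions, and it rests on 1 peak. In the pooled list 3 of the 10 had a summit. In the whole lists 0, 6 and 4 of the 10 had one in replicates 1, 2 and 3, against 21.8%, 20.1% and 19.9% of positions, so replicate 1 lay below the positions and the others above them. These 10 genes were not tested.

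Genes that encode the RNA polymerase III machinery are transcribed by RNA polymerase II. Of 31 such genes matched by symbol, of 32 listed, 10 had an optimal summit within 500 bp of a TSS (32.3%), against 15.2% of all 13945 nuclear protein-coding genes. In the top lists the count was 10, 11 and 10 of 31 in replicates 1, 2 and 3 (32.3%, 35.5% and 32.3%), against 8.68%, 17.4% and 18.6% of protein-coding genes, higher in 3 of 3 replicates. The list was chosen with earlier results of these data known, so its share was not tested. The highest peaks were at Bdp1, with a signal of 1348, and Brf, with 891, which both encode subunits of TFIIIB. Polr2H, a subunit shared by RNA polymerases, had 672. The polymerase III subunit genes Polr3E and Polr3G had 230 and 143, Polr1D and Polr2F, shared subunits, had 229 and 253, and Pbp95, of a complex that binds U6 promoters, had 139. La, whose protein binds the ends of new polymerase III transcripts, had 179, and RNaseZ, which trims the 3′ end of tRNA precursors, had 207. Maf1, a repressor of RNA polymerase III, had a peak in the top list of replicate 1 and none in the optimal list.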

How the data were processed

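The deposited lists on dm6 gave for each peak its summit and its signal (column of signal values, as deposited by the authors relative to a control alignment, on its own scale in each list). Per the deposited notes of each sample, a replicate list came from that replicate and a control alignment, a pooled list from all 3, and the optimal list from these by the irreproducible discovery rate. Aligner, peak caller and versions were not given in the sources used here, and the lists hold no reads, so depth is unknown. tRNA genes came from Ensembl release 115, Release 6 assembly. A gene had a peak when a summit lay within 500 bp of it. The genes, lists and tests were chosen with earlier results of these data known. The comparison with all positions, with genes of at most 200 bp in the replicates, near and far from a TSS, with copies, at other distances and in whole lists was chosen after the counts were seen. Named are the genes at the highest optimal peaks (up to 10, and the highest of each amino acid), the 3 largest loci, isolated once-found genes far from a TSS with a top-list peak in all replicates, and 4 isolated genes with no peak. Of the genes whose sequence could be printed, a few were chosen to show. The 10 sign-flip tests over the 3 replicates were adjusted by Benjamini-Hochberg, and p-values measure the spread between replicates only. Code was tested on simulated data (Python 3.11.15, numpy 2.4.6, scipy 1.17.1, pandas 2.3.3).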

Additional observations from a re-analysis of the deposited data

Results flagged for a closer look

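Outside the nuclear arms, all 22 mitochondrial tRNA genes (100%) had an optimal summit within 500 bp, a signal in data that the comparisons above leave out and with no control library beside it. The mitochondrial sequence is short and held 23 of the optimal peaks, with a highest signal of 3321. The same distance rule was met by all 16 other mitochondrial genes and by 74.7% of mitochondrial positions, so the count is not particular to the tRNA genes. An optimal summit lay inside 2 of the 22 genes. All 22 genes also had a summit within 500 bp in the whole list of every replicate.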

How the results depend on the processing

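No paired analysis was possible because all 3 samples belong to 1 group. Of 101 recomputed values, 57 met the rule set for an unchanged result and 44 did not. For differences averaged over replicates that rule asked only for the same sign, so some of the 57 moved far. Isolated minus clustered in top lists was 0.037 points by overlap, against 1.81. In whole lists it was -18.9 by locus, against -3.59. The sign changed in 7 of the 101, of which 3 were isolated minus clustered in the optimal list. The percent of genes with an optimal peak was 2.07 with summits within 250 bp, 6.90 within 1000 bp, 0.345 where the peak had to overlap the gene, 1.38 in the upper 50% of the optimal list, 27.6 in the pooled list, 1.43 without genes near a coding TSS, 7.69 over sequences found once, and 1.38 to 2.76 with a replicate left out. The mean percent over top lists was in the same order 1.84, 8.51, 0.345, then 1.72 and 7.93 for lists of 2000 and 9000 peaks, 26.6 for whole lists, 1.90 away from coding TSSs and 8.97 for sequences found once. Genes with a top-list peak in all 3 replicates numbered 2 (250 bp), 12 (1000 bp), 0 (overlap), 3 (2000 peaks), 8 (9000 peaks), 13 (whole lists) and 3 (away from coding TSSs), and 5 to 9 with a replicate left out. Isolated minus clustered in the optimal list was -0.33 points at 1000 bp, 1.11 by overlap, 1.22 in the upper 50%, -7.78 in the pooled list, -0.24 by locus, 8.30 for sequences found once, and 0.83 to 2.33 with a replicate left out. The same difference in top lists turned to -3.59 in whole lists and -2.43 by locus, and was 1.00 to 2.44 with a replicate left out. The median relative signal was 1.57 (250 bp), 1.49 (upper 50%), 1.83 (away from coding TSSs), 2.41 (found once) and 0.970 to 1.88 with a replicate left out. Amino acids at 50% or more of their genes numbered 2 in the pooled list (proline and the lone selenocysteine gene) and 1 for sequences found once. For the comparisons in whole lists, chosen after seeing the data, leaving out replicates gave these ranges: the whole-list excess over positions ran from -0.81 (without replicate 3) to 11.4, and whole-list isolated minus clustered from -9.25 to 6.19 (without replicate 3). With lists of 9000 peaks the excess was 1.21 points. The cause of these shifts was not tested. Few genes had peaks, so a count moves by much with 1 or 2 genes, and depth is unknown.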
